A study of Homo sapiens with 4 samples.

Results

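The comparison described here set LNCaP cells given 0.1 nM of R1881 against untreated LNCaP cells, on 1 array each, 2 of the 4 arrays of the series. Its members were the human match probes for miRNAs, 455 of the 1406 probes on an array, read as the mean signal in each array's deposited table. LNCaP is an established human prostate adenocarcinoma line with an androgen receptor, and R1881 is a synthetic androgen. Both groups were cells of this line kept for 24 hours in medium free of androgen with 10% charcoal-stripped serum; the untreated group then had 0 nM and the treated group 0.1 nM, and the series also holds 1 array at 1 nM and 1 at 10 nM. From each, 10 µg of total RNA, carrying the dye Cy3, went onto a 1-colour custom array stated to cover 474 human miRNAs. The treatment time is not given in the sources used here. With 1 array a side there was no replicate check, no difference has an error of its own, and no p-value is given.

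A miRNA is a short RNA that guides an Argonaute protein to messenger RNAs, mainly through its seed, bases 2 to 8 from the 5′ end, and lowers their translation or stability. MiRNAs with the same seed form families with overlapping targets, and many miRNA genes lie in clusters read from a common transcript. The androgen receptor is a hormone-activated transcription factor of prostate epithelium, and several miRNA genes, that of miR-21 among them, have been described as its targets. Probes for members of a family can differ by a single base of their target, so signal from related miRNAs can reach the same probe.

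The sequences of the families in which the comparison is most easily read are shown here, from RefSeq on build GRCh38.p14, with the seed in capitals. Of the 65 miRNAs detected on either array, 62 were matched to a mature sequence; these are the current sequences, and the array's own probe sequences were not used here. The let-7 family is shown because its net signals were close to equal on the 2 arrays.
let-7a: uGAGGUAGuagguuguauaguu
let-7b: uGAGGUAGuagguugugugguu
let-7c: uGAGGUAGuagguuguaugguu
let-7d: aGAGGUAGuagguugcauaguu
let-7e: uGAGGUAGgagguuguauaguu
let-7f: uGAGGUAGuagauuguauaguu
let-7g: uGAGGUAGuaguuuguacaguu
miR-98: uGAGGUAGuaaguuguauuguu

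The miR-99 and miR-100 family is shown because its members share a seed and most other bases, yet on the human probes miR-100 stood apart from the others.
miR-99a: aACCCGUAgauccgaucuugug
miR-99b: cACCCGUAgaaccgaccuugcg
miR-100: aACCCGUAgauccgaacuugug

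The miR-29 family is shown because 3 of 3 members were lower at 0.1 nM.
miR-29a: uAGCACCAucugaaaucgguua
miR-29b: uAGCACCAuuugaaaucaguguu
miR-29c: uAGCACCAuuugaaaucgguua

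The miR-200 family holds a pair of seeds that differ by a base, and is shown because miR-200a stood far below miR-200b and miR-200c.
miR-200a: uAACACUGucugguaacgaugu
miR-141: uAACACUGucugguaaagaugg
miR-200b: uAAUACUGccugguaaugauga
miR-200c: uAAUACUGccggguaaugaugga

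The miR-17 seed family is shown because 5 of its 6 measured members stood above the array's overall shift, or at it.
miR-17-5p: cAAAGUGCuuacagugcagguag
miR-20a: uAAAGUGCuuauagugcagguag
miR-20b: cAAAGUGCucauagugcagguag
miR-93: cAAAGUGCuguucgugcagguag
miR-106a: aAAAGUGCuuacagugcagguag
miR-106b: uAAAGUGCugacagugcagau

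MiR-19b and miR-21 are shown as members of the low end of the comparison with seeds of their own.
miR-19b: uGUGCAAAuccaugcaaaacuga
miR-21: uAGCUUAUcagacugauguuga

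The 0.1 nM array had a lower signal than the untreated array for most of the miRNAs detected on both, and a near-equal signal for some. The detection threshold came from the mismatch probes, copies of the probes with 2 changed bases, and lay 3 scaled median absolute deviations above their median. By that rule the untreated array detected 62 human miRNAs and the 0.1 nM array 47, with 44 detected on both, 18 on the untreated array alone, 3 on the 0.1 nM array alone and 390 on neither. Net signal is the signal less the median of the mismatch probes on that array, 371.5 untreated and 355 at 0.1 nM. Over the 44 miRNAs detected on both arrays, the median ratio of net signal, 0.1 nM over untreated, was 0.664, with quartiles of 0.551 and 0.885 and a range of 0.247 to 1.13. The ratio was below 1 for 38 of the 44.

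The shift was not a single factor applied to all miRNAs. The SD of the log2 net signal ratio was 0.53 over miRNAs. The 15 miRNAs with an untreated net signal of 1000 or more had a median ratio of 0.617, the 21 between 300 and 1000 had 0.659 and the 8 below 300 had 0.887. Among the brightest group the ratios ran from 0.247 to 1.01, so bright probes held both the lowest and near-equal values. The dim group was kept only where the 0.1 nM array also exceeded its threshold, which leaves out dim miRNAs with low ratios. Mouse and rat probes detected on both arrays gave a median ratio of 0.708 over 16 probes. The Bio B and Bio C spike probes, whose names carry the tag neg, had ratios of 0.484 and 0.596, and the brightest glycine tRNA probe had 0.579. Whether the amount of RNA, its labelling or the hybridisation set this lower signal was not tested. The stated amount was 10 µg of total RNA for each array, so the signal gives neither a number of cells nor the RNA per cell.

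**Figure D1:**
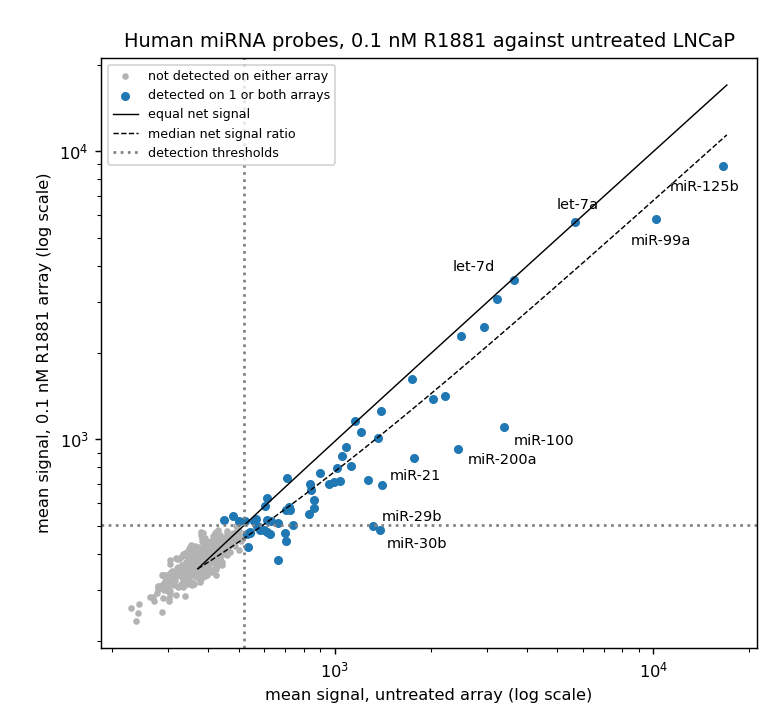
Mean signal of the 455 human miRNA probes on the untreated array (horizontal, log scale) and the 0.1 nM array (vertical, log scale); blue points were detected on 1 or both arrays, and dotted lines are the detection thresholds. The dashed line is the median net signal ratio, 0.664, and the middle of the 44 miRNAs detected on both arrays runs from 0.551 to 0.885 (quartiles), with let-7a and let-7d near the line of equal net signal and miR-100, miR-200a, miR-30b and miR-29b well below both.

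To read single miRNAs apart from this shift, the signals were corrected with normexp and quantile normalised over the 4 arrays, and log2 ratios below are on that scale unless another is named. The median log2 ratio over the 65 miRNAs detected on either array was -0.53 without scaling and 0.04 on the quantile scale, and centring on the median of the 44, called median centring below, gave -0.01. On the quantile scale, 5 of 65 miRNAs, or 7.69%, were lower by 2-fold or more and 0 of 65, or 0%, were higher. At 1.5-fold, 10 of 65, or 15.4%, were lower and 7 of 65, or 10.8%, were higher. Read instead as net signal relative to the median ratio among the 44, 3 miRNAs, or 6.82%, were lower by 2-fold or more and 0, or 0%, were higher. At 1.5-fold that scale gave 6 lower and 6 higher, 13.6% each. These are descriptions of 2 arrays and carry no test.

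The 5 miRNAs lower by 2-fold or more were miR-30b, miR-29b, miR-19b, miR-100 and miR-29c. MiR-30b, of a family known for restraining the loss of epithelial traits, had net signals of 1015.75 untreated, 130.75 at 0.1 nM, 611.75 at 1 nM and 528.25 at 10 nM. It was not detected at 0.1 nM, so its log2 ratio of -2.00 is written as at least 3.40-fold lower on the quantile scale. MiR-29b, whose known targets include collagen mRNAs, had net signals of 946.25 untreated and 781.25 and 1347.5 at 1 and 10 nM, while its signal at 0.1 nM, 499, was under the threshold of 506. It was at least 3.11-fold lower. For both, the 0.1 nM array was the lowest of the 4 and the only one that did not detect them.

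MiR-19b, a member of the miR-17-92 cluster, had net signals of 291.25 untreated, 27.75 at 0.1 nM and 262 at 1 nM, and was at least 1.15-fold lower. MiR-29c had 330, 88.75, 358.5 and 801, and was at least 1.29-fold lower. These bounds are small because the untreated signals stood not far above the threshold. MiR-100, of a family known to target mTOR, was detected on both arrays, with net signals of 3038.25, 750.75, 2491 and 3645.75 from 0 to 10 nM. Its log2 ratio was -1.19, or 2.28-fold lower, and -1.38 with median centring. By their bounds or measured values, 3 of the 5, namely miR-30b, miR-29b and miR-100, lay beyond 2-fold. For miR-19b and miR-29c, not above background at 0.1 nM, the bounds do not reach it.

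MiR-21, which targets the mRNA of the tumour suppressor PDCD4, gave a net signal of 1040 untreated and of 337.25 at 0.1 nM, beside 1078 and 1459.5 at 1 and 10 nM. Its net signal ratio was 0.324, which is 0.488 times the median ratio, and its log2 ratio was -0.88, or -0.90 with median centring. MiR-200a had net signals of 2075.5, 569, 1494.5 and 1359, and a net signal ratio 0.413 times the median one. The scale matters for it: its log2 ratio was -0.65 on the quantile scale and -1.20 with median centring. MiR-574 was similar in kind, at 1406 and 508.75 and at -0.49 and -0.81 on those scales, with 1569.75 and 2362 at the higher doses. Thus miR-100, miR-200a and miR-21 were the 3 miRNAs at or beyond 2-fold below the median net signal ratio among those detected on both arrays.

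Of the 18 miRNAs detected only on the untreated array, 4 are among the 5 above, and the others stood at log2 ratios of -0.84 or higher. MiR-15a, known to target BCL2 and cyclins, was at 329 and 116.75 and at least 1.28-fold lower. MiR-148a, described as raised by androgen in prostate cells, was at 366.5 and 150.5, and at least 1.43-fold lower. MiR-34a, a target of p53, was at 257 and 114 and at least 1.08-fold lower, and miR-141 at 243.5 and 120.5 and at least 1.06-fold lower. MiR-182, another of the 18, had net signals of 198.25 and 146 and a log2 ratio of 0.04, at the median of all 65. MiR-497, miR-324-5p, miR-601, miR-195, miR-130b, miR-188, miR-98, miR-15b and miR-181d give no bound above 1-fold.

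No miRNA was higher by 2-fold, and few had a higher net signal at all: 9 of 65 had a ratio above 1, and 3 of those 9 were not detected untreated. Of the 44, the top of the order was held by let-7e at 0.83, miR-106a at 0.77, miR-93 at 0.75, miR-200c at 0.67 and miR-222 at 0.66. Their net signals were nearly equal on the 2 arrays. Let-7e had 336.75 and 377.75, miR-106a had 784 and 807, and miR-93 had 240.5 and 271.25. MiR-200c had 1374.5 and 1271.25. The net signal ratios were 1.12 for let-7e, 1.03 for miR-106a, 1.13 for miR-93 and 0.925 for miR-200c. Without scaling their log2 ratios were 0.05, 0.00, 0.03 and -0.13. MiR-222, which lowers p27, an inhibitor of the cell cycle, had 231.75 and 234.25, and its mismatch probe was itself above the threshold at 0.1 nM, with 162.5.

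MiR-637, miR-342 and miR-608 were detected at 0.1 nM and not untreated. MiR-637 had net signals of 77 and 172 and was at least 1.34-fold higher, miR-342 had 110 and 187.75 and was at least 1.53-fold higher, and miR-608 had 129.75 and 167.25, with log2 ratios of 0.49 on the quantile scale and 0.08 without scaling. All 3 lay close to the net threshold of 151 on that array. The mismatch probe of miR-637 had net signals of 105.5 and 97.5, and that of miR-608 had 153.5 at 0.1 nM, whereas that of miR-342 was at -1. With the own mismatch probe subtracted, miR-637 had a log2 ratio of 0 and miR-342 had 0.97. The 0 is not a measured equality, since the mismatch probe of miR-637 read above its match probe untreated, 105.5 beside 77. No positive difference was left there to form a ratio, so the subtraction cannot decide whether miR-637 was higher. MiR-342 was not detected untreated, so its 0.97 is not a measured fold either.

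**Figure D2:**
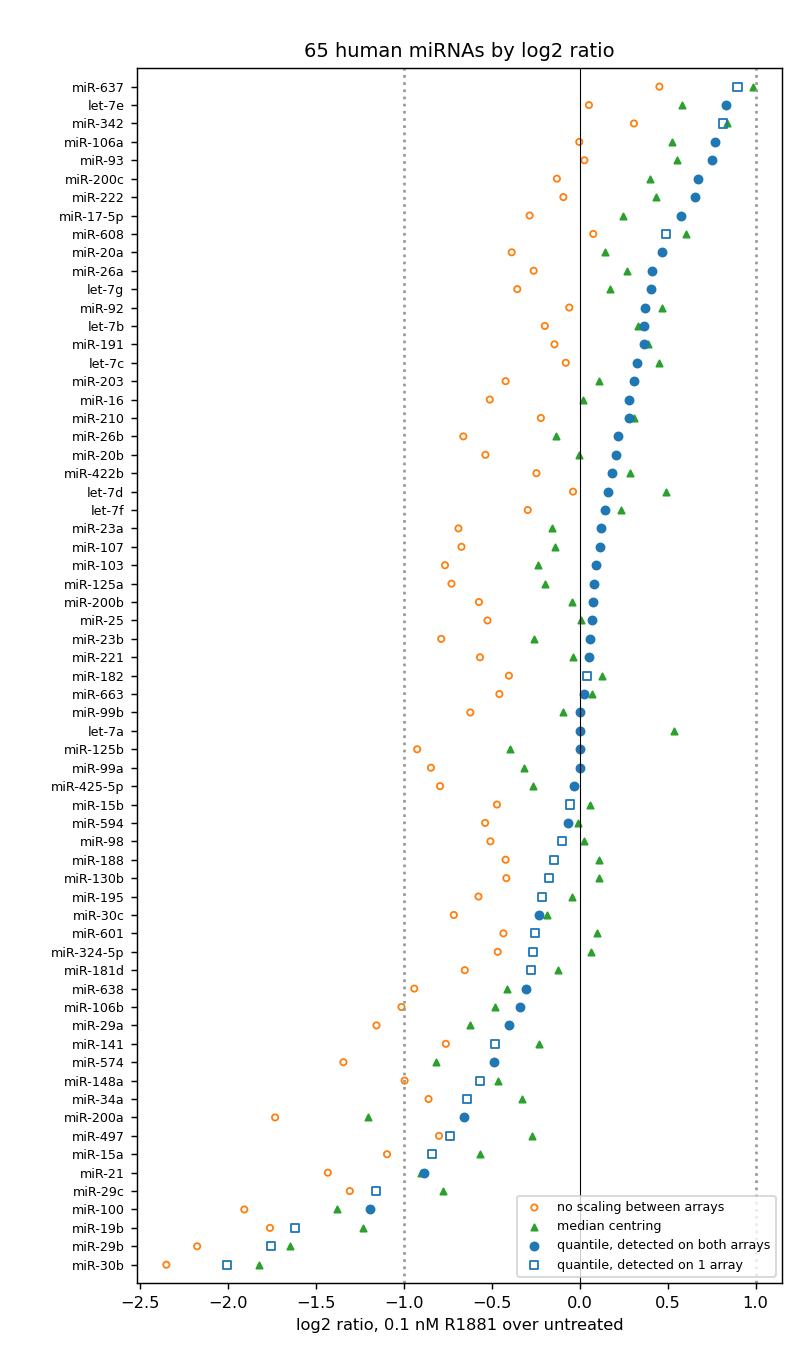
Log2 ratio of 0.1 nM over untreated for the 65 human miRNAs detected on either array, ordered by the quantile value (filled circles, detected on both arrays; open squares, on 1), with median centring (triangles) and no scaling (open circles) beside it. The unscaled values lie to the left, with a median of -0.53, while miR-30b, miR-29b, miR-19b and miR-100 stay left of -1 on all 3 scales.

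The let-7 family, known for lowering RAS and HMGA2, took little part in the lower signal. Its 7 members detected on both arrays had net signal ratios of 0.780 to 1.12, with a median of 0.953, beside 0.635 for the other 37 miRNAs. Let-7a had net signals of 5288 and 5341.75, let-7d had 3281 and 3219, and let-7c had 2860 and 2726.75. Let-7f had 2562.25 and 2092, let-7b 1024 and 902.25, and let-7g 525.75 and 410.25. The members did not stand alike on every scale: the median log2 ratio of the 8 measured members was 0.24 on the quantile scale, 0.39 with median centring and -0.14 without scaling. Let-7a shows how quantile normalisation fixes bright probes, since its log2 ratio was 0.00 on that scale and 0.54 with median centring. MiR-98, which carries the same seed, was at 212 and 139 and not detected at 0.1 nM, and let-7i was detected on neither array.

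The miR-99 and miR-125 families lie in genomic clusters with let-7 genes, and their net signals were lower. MiR-99a had 9827.75 untreated and 5446.75 at 0.1 nM, a ratio of 0.554, and miR-99b had 353.5 and 213.5, a ratio of 0.604. MiR-100, at 0.247, stood apart from both. MiR-125b, one of the miRNAs described as raised by androgen, had 16216 and 8525, a ratio of 0.526, and miR-125a had 622.25 and 354, a ratio of 0.569. On the quantile scale miR-99a, miR-99b and miR-125b were at 0.00 and miR-125a at 0.08, while median centring gave -0.32, -0.09, -0.39 and -0.20.

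Of the miR-29 family, 3 of 3 members were lower, with log2 ratios of -1.75 for miR-29b, -1.16 for miR-29c and -0.40 for miR-29a. MiR-29a had net signals of 905.75 and 367.5, a ratio of 0.406, and was the single member detected at 0.1 nM. The family's median was -1.16, and -0.78 with median centring, beside 0.04 over all 65. Both are the values of miR-29c, not above background at 0.1 nM, so they are not a measured family value. With own mismatch probes subtracted the median was -0.32. In the miR-30 family 2 of 5 members were measured, miR-30b and miR-30c. MiR-30c had 293.5 and 157.75 and a log2 ratio of -0.23, far from the value of miR-30b. MiR-30a-5p, miR-30d and miR-30e-5p were detected on neither array.

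In the miR-200 family, which maintains epithelial identity by lowering ZEB1 and ZEB2, miR-200a was lower than miR-200b and miR-200c, while miR-141, which shares the seed of miR-200a, was not detected at 0.1 nM and was bounded at 1.06-fold lower. The log2 ratios were -0.65 for miR-200a, 0.07 for miR-200b and 0.67 for miR-200c. Their net signal ratios were 0.274, 0.659 and 0.925 in the same order. MiR-200b had net signals of 992.5 and 654. MiR-429 was detected on neither array. The order of the 3 was the same with median centring, at -1.20, -0.04 and 0.40.

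The miR-17 seed family, known for promoting proliferation by lowering p21, had 5 of 6 measured members higher on the quantile scale and a median of 0.52, beside 34 higher and a median of 0.04 over all 65. MiR-17-5p had net signals of 711 and 587.5, miR-20a had 682.75 and 519.5, and miR-20b had 470.25 and 312.75. MiR-106b, with signals of 833.75 and 550 and a net signal ratio of 0.422, was the exception at -0.34. The family's median was 0.19 with median centring, where miR-20b stood at -0.01, and -0.33 without scaling. MiR-18a was detected on neither array. Of the related miR-19, miR-25 and miR-92 group, miR-25 was at 346.25 and 229.75 and miR-92 at 153.5 and 166.75, so the low value of miR-19b was not shared by them.

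Most members of the remaining families lay near the overall shift, while miR-15a stood lower, at a log2 ratio of -0.84. Of the 4 measured members of the miR-15/16 family 3 were lower, but these 3, miR-15a, miR-15b and miR-195, were not detected at 0.1 nM. MiR-16 was at 0.28, with net signals of 645 and 442.5. The family's median was -0.13, and -0.01 with median centring. MiR-103 and miR-107, which lie in introns of pantothenate kinase genes, had net signals of 1848.5 and 1064.5 and of 1659.25 and 1023.25, ratios of 0.576 and 0.617. MiR-23a and miR-23b had ratios of 0.587 and 0.543. On the quantile scale these 4 stood at 0.10, 0.12, 0.12 and 0.06, and with median centring at -0.24, -0.14, -0.16 and -0.26, so their sign depends on the scale. MiR-221 had net signals of 333 and 211.5 and a log2 ratio of 0.05, and its mismatch probe was at 90 untreated. MiR-26a, known to target EZH2, had 841.5 and 707.25 and a log2 ratio of 0.41, and miR-26b had 750.25 and 456.25 and a log2 ratio of 0.22. MiR-638 had 489 and 223.75 and a log2 ratio of -0.30, with a mismatch probe at 170 and 120.5, and miR-594 was at -0.06. MiR-191 had 2118.75 and 1932.75, a ratio of 0.912, and miR-425-5p had 493 and 259.75, a ratio of 0.527.

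**Figure D3:**
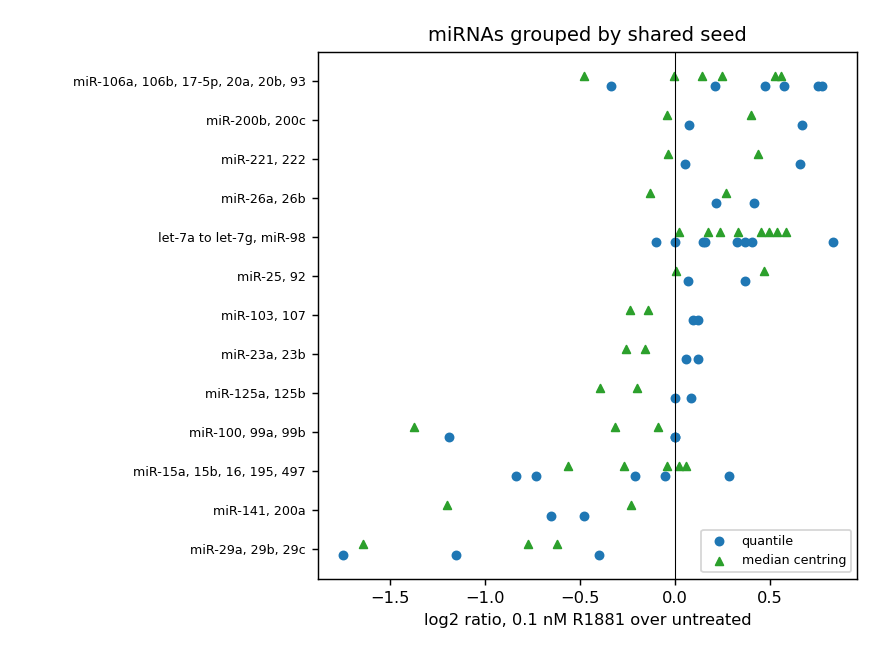
Log2 ratio of 0.1 nM over untreated for the 13 groups of measured miRNAs that share a seed, with quantile normalisation (circles) and median centring (triangles), each point a miRNA. The miR-29 and the miR-141 and miR-200a groups lie below 0 on both scales, whereas the let-7 group with median centring lies at or above 0 throughout.

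MiRNAs whose genes lie within 10000 bases of each other on a strand did not always keep a common ratio. Some clusters held closer values, such as 1.01, 0.981 and 0.816 for let-7a, let-7d and let-7f on chromosome 9. There, let-7a has 3 genes and let-7f has 2, so their ratios cannot be assigned to that cluster. Other clusters held values far apart. In the miR-17-92 cluster on chromosome 13, miR-17-5p and miR-20a had net signal ratios of 0.826 and 0.761 and miR-92 had 1.09, while miR-19b had 0.0953 on a signal not above background at 0.1 nM. MiR-19b and miR-92 also have copies in the X-linked cluster of miR-106a and miR-20b, whose ratios were 1.03 and 0.665. In the cluster of miR-106b, miR-93 and miR-25 on chromosome 7, the ratios were 0.422, 1.13 and 0.664.

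The miR-200 family lies in a pair of clusters. MiR-200b at chr1:1167160-1167181 and miR-200a at chr1:1167916-1167937, both on the plus strand, had ratios of 0.659 and 0.274. MiR-200c at chr12:6963742-6963764 and miR-141 at chr12:6964155-6964176, on the plus strand too, had 0.925 and a signal not above background at 0.1 nM. MiR-100, at chr11:122152275-122152296 on the minus strand, neighbours a gene of let-7a, but let-7a has 3 genes and a ratio of 1.01 that cannot be assigned to any of them. The neighbours miR-99a and let-7c on chromosome 21 had 0.554 and 0.953, and miR-99b, let-7e and miR-125a on chromosome 19 had 0.604, 1.12 and 0.569.

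Near-identical miRNAs were compared because their probes may share signal. Of the matched miRNAs of equal length, 8 pairs differ by 1 base, and the median absolute difference of their log2 ratios was 0.26, with a range of 0.02 to 1.19. The widest pair was miR-100 and miR-99a, which differ by A16U, counted from the 5′ end with the base of miR-100 given before that of miR-99a. Let-7a and let-7e, which differ by U9G, were 0.83 apart on the quantile scale, although their net signal ratios were 1.01 and 1.12. MiR-29a and miR-29c differ by C10U, but miR-29c was not above background at 0.1 nM, so their distance of 0.75 is not a measured difference. The closest pair was miR-103 and miR-107, with G22C. No mismatch probe of miR-100, miR-99a, miR-30b, miR-29b or miR-21 exceeded a net signal of 37.5 on either array.

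Mouse and rat probes of the same name were read on the same 2 arrays. Whether they bind the same miRNA as the human probe was not tested. Of the 9 mouse or rat probes detected on both arrays with a measured human namesake, 3 lay within 0.3 of it on the log2 scale, and the median absolute difference was 0.37. The mouse let-7a probe had net signals of 3794.5 and 3709.75, a ratio of 0.978 beside 1.01 for the human probe. The mouse miR-99a probe had 4625.5 and 1259.75, a ratio of 0.272 beside 0.554, which is nearer to the 0.247 of human miR-100. The mouse miR-106a probe had 512.25 and 208.5, a ratio of 0.407 beside 1.03. The near-equal signal of miR-106a therefore rests on its human probe, and the ratio differed between the human and mouse probes named miR-99a. The mouse sequences were not used here.

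Lists of miRNAs described as responsive to androgen were read against the median of 0.04 over all 65, with the caveat that earlier results of these data were known when they were chosen. Over those 65, 34 were higher and 27 lower on the quantile scale. Of 11 described as raised, 7 were measured, 5 were lower, 1 was higher and 1 was at 0.00, with a median log2 ratio of -0.48; 3 of the 5, miR-29b, miR-148a and miR-141, were not detected at 0.1 nM. The lower ones were miR-29b, miR-21, miR-148a, miR-141 and miR-29a, and the higher one was miR-210, a hypoxia-induced miRNA with net signals of 193.75 and 174 and a mismatch probe at 86.5 and 88. Without scaling the median was -0.99, and with median centring -0.46. Of the 5 described as lowered, 3 were higher, 1 was lower and 1 was at 0.00, with a median of 0.05, and -0.04 with median centring. MiR-27a, miR-32, miR-101 and miR-19a were detected on neither array.

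The 0.1 nM array was the lowest of the 4 in net signal for 47 of the 65 miRNAs, while the untreated array was lowest for 7, that at 1 nM for 5 and that at 10 nM for 6. After quantile normalisation it was lowest for 21 and highest for 32. The medians of the net signal ratio to the untreated array were 0.987 at 1 nM and 1.08 at 10 nM, each over the 57 miRNAs detected on both arrays of its comparison. Those comparisons share the untreated array with this one. Against the other arrays as denominator, the 0.1 nM array had median net signal ratios of 0.689 to 1 nM over 41 miRNAs and 0.703 to 10 nM over 43. The lower signal at 0.1 nM was thus seen with each of the other 3 arrays as denominator. The SD of the log2 net signal ratio was 0.54 against 1 nM and 0.66 against 10 nM, beside 0.53 against the untreated array. Between the other arrays it was 0.55 for 10 nM and 0.40 for 1 nM over untreated and 0.33 for 10 nM over 1 nM. These SDs cover unlike sets, 44 miRNAs for 0.1 nM and 57 for 10 nM over untreated. Detection on both arrays left out 18 miRNAs that only the untreated array detected. Over the 65 detected on either array the SD at 0.1 nM was 0.78, so the spreads cannot be ranked.

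MiR-30b, miR-29b, miR-19b, miR-100, miR-29c and miR-21 were lower at 0.1 nM than on any other array, as their values above show. The miRNAs that headed the high end followed other courses. Let-7e had 456.75 and 540.5 and miR-93 had 296.75 and 340.5 at 1 and 10 nM, both above their values at 0.1 nM. MiR-106a had 1182.25 and 998. MiR-222 had 112.5 at 10 nM, below the untreated and the 0.1 nM array, and its mismatch probe was lower there as well, at 46.25.

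**Figure D4:**
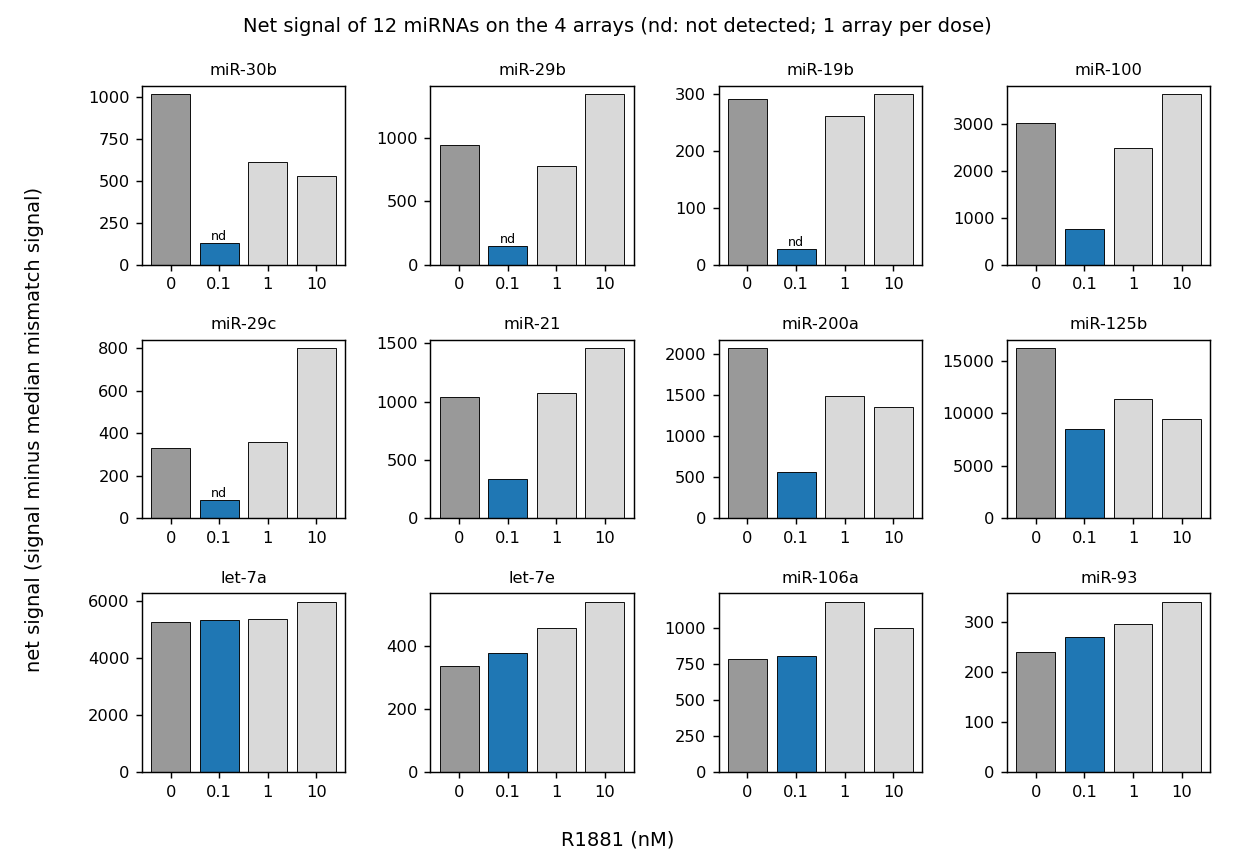
Net signal (signal minus the array's median mismatch signal) of 12 miRNAs at 0, 0.1, 1 and 10 nM R1881, 1 array per dose with no error bars; nd marks a miRNA not detected on that array. MiR-30b, miR-29b, miR-19b, miR-100, miR-29c, miR-21 and miR-200a are lowest at 0.1 nM, while let-7a is nearly level from 0 to 1 nM.

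Base composition of the mature miRNA was set against the ratios for the 62 matched miRNAs, as a description across miRNAs that share both arrays and that are not independent. Of 6 features examined over the 62, the guanine share had the strongest relation, with Spearman's rho of 0.53 and Pearson's r of 0.44 to the unscaled log2 ratio, and 0.32 and 0.31 on the quantile scale. The GC share had a rho of 0.19 to the unscaled ratio, the length 0.15, and the shares of adenine, cytosine and uracil -0.23, -0.26 and 0.04. Over the 42 matched miRNAs detected on both arrays, the unscaled rho was 0.58 for guanine and -0.47 for cytosine, and on the quantile scale cytosine had the larger rho, -0.44 beside 0.43 for guanine. The let-7 miRNAs are rich in guanine, and without them and miR-98 the rho for guanine was 0.45 over 54 miRNAs unscaled and 0.27 on the quantile scale. By guanine share, the unscaled median log2 ratio was -0.79 for 15 miRNAs at up to 22%, -0.62 for 17 between 22 and 28% and -0.32 for 30 above 28%. Between the arrays at 10 and 1 nM, the rho for guanine was 0.13 unscaled and 0.03 on the quantile scale. Neither array is part of this comparison, but the 62 miRNAs were chosen by detection in it. The quantile scale was also set over all 4 arrays. The part that base composition plays in single ratios was not tested.

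**Figure D5:**
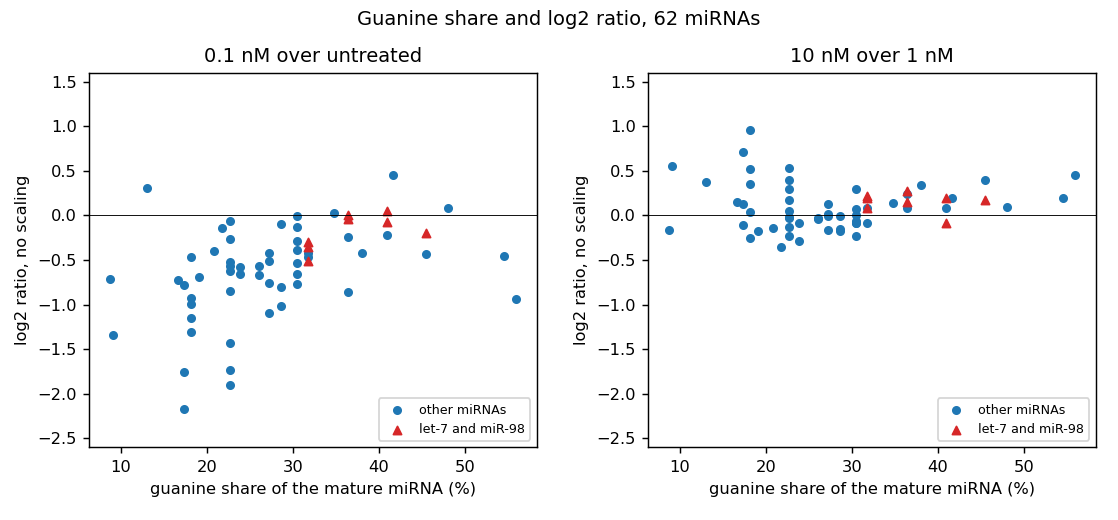
Unscaled log2 ratio against the guanine share of the mature sequence (percent) for 62 miRNAs, for 0.1 nM over untreated (left) and 10 nM over 1 nM (right); red triangles are let-7 miRNAs and miR-98. On the left every point below -1 except that of miR-106b lies at a guanine share under 28%, and rho is 0.53, while on the right rho is 0.13.

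The label of the cells was checked against marker miRNAs. Of 8 epithelial markers the untreated array detected 5 and the 0.1 nM array 4; miR-203 had net signals of 467.25 and 344, and miR-205 and miR-375 were detected on neither, with miR-375 at 97.5 and 110.5. None of 7 blood, 4 muscle, 5 stromal or endothelial, 1 liver and 4 neuronal markers was detected on either array. The highest of these, miR-128b, had 71.25 and 97.75. The summed net signal of all 8 epithelial markers, detected or not, was 5346.75 untreated and 3142.5 at 0.1 nM. The sums of the lists of other tissues ran from -281 to 133.75 and from -96.5 to 162.75. Of 3 markers of prostate lines with the androgen receptor, miR-148a and miR-141 were detected untreated and miR-375 was not. None of the 3 was detected at 0.1 nM. Their net signals, detected or not, summed to 707.5 untreated and 381.5 at 0.1 nM. The probe for U6 RNA, a usual loading reference, was not above background, at -9.5 and -10.5, so it gives no scale between the arrays.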

How the data were processed

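MiRNA levels were measured on 4 1-colour custom arrays, 1 for each dose of R1881. Per the file headers, the authors deposited a mean signal for each probe, an intensity on a linear scale; the sources used here name neither image software nor a background step. In the authors' value table each intensity is less by that array's median mismatch signal, and cells are filled from about 1.5 times that median.

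A mismatch probe listed at 0 (4 untreated, 7 at 0.1 nM) was treated as missing in the threshold. Signals were corrected with normexp (offset 50), quantile normalisation over the 4 arrays took in the match probes of every species, in limma 3.58.1 under R 4.3.3, and log2 ratios were taken with no filter other than detection. Tables and figures used Python 3.11.15. The calculation was run on simulated data in which a single factor scaled the whole array, apart from chosen miRNAs. That is a simpler case than the uneven shift seen here. A miRNA detected on 1 array is given as at least N-fold, its level against the lowest detected level of the other array, or its own there if higher. The number of arrays limits the precision.

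Named miRNAs were the 10 highest and 10 lowest ratios among those detected on both arrays, all at 2-fold, those detected on 1 array, the 8 brightest untreated, miR-21, miR-141, miR-125b and the brightest members of the lists; other list members are named to account for them. Members and lists were chosen with earlier results of these data known. Old array names were paired by hand with current names.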

Additional observations from a re-analysis of the deposited data

Results flagged for a closer look

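Outside the human match probes, 3 probes exceeded the detection threshold at 0.1 nM and not on the untreated array, a net signal of 151 at 0.1 nM. The mouse probe of let-7d* read 175 in net signal at 0.1 nM, against 27.5 untreated and 55.75 and 39 at 1 and 10 nM. The mouse probe of miR-692 had 199.75 at 0.1 nM, beside 27.5, 48.75 and 42.5 on the others. The mismatch probe of human miR-222 had 162.5 at 0.1 nM and was under the untreated threshold of 147, with 48.25 and 46.25 at 1 and 10 nM. The mismatch probe of miR-608, at 153.5, also exceeded the threshold at 0.1 nM, but is listed at 0 on the untreated array and is not counted among the 3.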

How the results depend on the processing

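The 5 miRNAs at 2-fold or more lower kept their direction under the alternatives run, and 29 of their 36 values there were still at 2-fold or more. The count of lower miRNAs was 3 without background correction, 11 without scaling, 1 among miRNAs detected on both arrays and 10 at the 1.5-fold threshold; the last 3 follow from the overall shift, fewer miRNAs and a lower limit. The count of higher miRNAs was 2 with the median mismatch signal subtracted, 2 with the own mismatch probe subtracted and 7 at 1.5-fold. For the subtractions the cause was not tested. The settings not named for a count gave 4 to 7 lower and 0 higher, except own mismatch subtraction as stated. The median log2 ratio was -0.60 in the authors' value table as deposited, which is not scaled, and -0.53 without scaling. The median net signal ratio was 0.665 with detection at 5 scaled median absolute deviations, 0.661 in the authors' value table and 0.809 on signals with no background removed. Across the settings with scaling, 19 miRNAs were lower throughout and 15 higher throughout; without scaling 4 of the 15 stayed higher. The 7 values under 2-fold were all of miR-29c and miR-19b, neither above background at 0.1 nM. MiR-29c was at -0.20 with its own mismatch probe subtracted, -0.66 without background correction, -0.77 with cyclic loess, -0.78 with median centring and -0.95 with quantile normalisation over 2 arrays. MiR-19b was at -0.81 without background correction and -0.87 with the median mismatch signal subtracted. Of 675 values of single miRNAs and lists, 103 moved by over 1.5-fold. Dim probes limit the comparison, since 21 of 65 miRNAs were above background on 1 of the 2 arrays. No paired analysis was possible because each dose has 1 array.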

Other observations

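Mouse probes with no measured human namesake showed the same wide spread of ratios. The mouse miR-467a and miR-467b probes had net signals of 596 and 800.5 untreated and 231 and 233.25 at 0.1 nM, ratios of 0.388 and 0.291. At 1 and 10 nM miR-467a stood at 698.75 and 812.25 and miR-467b at 1160.25 and 1649, so both were lowest at 0.1 nM. The mouse miR-706 probe had 807.5 and 446, a ratio of 0.552, and the rat miR-140* probe had 205.25 and 187.5, a ratio of 0.914. Which human RNA these probes bind was not tested.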
